A study of Mus musculus with 30 samples.

Results

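Trh, Spink1, Calml4 and Hsd17b14 are 4 genes whose signal was much lower after doxycycline withdrawal in mouse embryonic stem cells with doxycycline-dependent Nanog. They were chosen by their withdrawal values, as strong losses on these same arrays, so those values are a description without a test. Each gene had 1 transcript cluster, the set of array probes for a transcription unit, with that gene as its single symbol: 10546417 for Trh, 10458704 for Spink1, 10586118 for Calml4 and 10553004 for Hsd17b14. These are 4 of the 28815 clusters in the table and of the 23385 with a gene symbol, all of which were tested together.

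The cells were 1 Nanog rescue clone, NgR, with the genotype AINV15_Nanog_Rescue. It was derived from embryonic stem cells that express rtTA, the doxycycline-dependent transactivator, was maintained on a layer of primary mouse fibroblasts from embryos, and grew with 1 ug/ml doxycycline. There were 10 groups of 3 arrays. On days 1, 3 and 5 after withdrawal they were cells given a further 12 h pulse of doxycycline, time-matched cells kept for 12 h without it, and withdrawn cells at that day, and day 0 was cells with doxycycline. Arrays of cells kept on doxycycline over these days, or of cells whose Nanog does not depend on doxycycline, were not analysed here. In the comparisons between days, time in culture and doxycycline itself therefore cannot be told apart from Nanog. The pulse and its control are matched in time, and there doxycycline itself cannot be told apart from Nanog. All values are RMA signals on a log2 scale, where 1 unit is a 2-fold difference. Signals of different genes come from different probes and are not compared with each other.

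Nanog, a homeobox factor that sustains self-renewal of embryonic stem cells, followed the labels: its signal was 10.70 to 11.11 on the 12 arrays with doxycycline and 9.64 to 10.57 on the 18 arrays without it. Array medians ran from 7.33 to 7.46. The 4 arrays with the widest spread of values were replicate 3 of the day 1 control, replicate 2 of the day 3 control and replicates 2 and 3 of the day 5 control, with interquartile ranges of 2.76, 2.84, 2.94 and 2.93. The 10 embryonic stem cell markers checked averaged 10.20 to 10.31 on the day 5 withdrawn arrays, against 10.92 to 11.00 at day 0, and 8 of them fell while Epcam rose; over all clusters 23.8% were called higher and 18.8% lower in this comparison. Over the same arrays, 15 feeder fibroblast markers averaged 7.33 to 7.42, against 7.03 to 7.11, and 8 of them rose and 1 fell. The 15 extraembryonic endoderm markers averaged 7.94 to 8.0, against 7.59 to 7.64, with 7 up and 1 down, and among the endoderm factors Gata6 rose (0.67, adjusted p = 4.5e-07) while Gata4, Sox17, Foxa2 and Sox7 were not called. The 11 trophectoderm markers averaged 9.10 to 9.20, against 7.85 to 7.90, with 7 up. The keratins Krt7 (3.39) and Krt18 (2.89) rose most. Among the transcription factors Gata3 rose by 1.42 and Cdx2 by 0.37, while Eomes, Elf5, Hand1 and Tfap2c were not called. The part of other cell types in the losses was not tested. Fewer cells of a type and less RNA per cell cannot be told apart in bulk RNA. RMA signals have no true 0, so no marker can be given as absent.

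The 4 genes belong to unrelated processes. Trh encodes the precursor of thyrotropin-releasing hormone, a hypothalamic tripeptide that makes the pituitary release thyrotropin and prolactin; the precursor is cut by prohormone convertases, trimmed by carboxypeptidase E, cyclised by glutaminyl cyclase and amidated by Pam. Spink1, also named Spink3 in the mouse, is a secreted Kazal-type inhibitor of trypsin, known from the pancreas. Calml4 is a calmodulin-like protein that in human intestinal cells acts as a light chain of the brush border myosin Myo7b, and Hsd17b14 is a short-chain dehydrogenase whose human form oxidises estradiol.

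Promoter sequences in the RefSeq table (build GRCm38.p6) matched 2 of the 4 genes, Trh and Calml4. They are shown as those of a loss that came late, in Trh, and of one already seen at day 1, in Calml4. Each is the 250 bases before the annotated start, read on the gene's strand, at chr6:92244651-92244900 (minus strand) for Trh and chr9:62857854-62858103 (plus strand) for Calml4. Capitals mark every match, on either strand, to 6 motifs picked with the Trh sequence in view: the TATA box core TATAA, the hormone and cyclic AMP response site TGACCTCA, the full cyclic AMP site TGACGTCA, the octamer ATGCNAAT, the Sox core ACAAAG and the Nanog core TAATGG.
Trh: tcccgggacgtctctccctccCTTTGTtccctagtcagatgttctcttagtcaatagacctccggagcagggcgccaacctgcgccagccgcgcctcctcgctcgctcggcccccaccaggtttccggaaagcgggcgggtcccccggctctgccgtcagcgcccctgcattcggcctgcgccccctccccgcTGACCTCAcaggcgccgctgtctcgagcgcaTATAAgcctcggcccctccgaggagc
Calml4: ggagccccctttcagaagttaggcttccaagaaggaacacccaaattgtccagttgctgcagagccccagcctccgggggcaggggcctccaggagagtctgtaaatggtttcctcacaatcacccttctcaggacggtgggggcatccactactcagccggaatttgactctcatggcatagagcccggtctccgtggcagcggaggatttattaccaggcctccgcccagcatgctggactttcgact
In Trh, TATAA lies at position -26 from the start, TGACCTCA at -57 and the Sox core, on the other strand, at -229. The same windows of all 32851 promoters hold the TATA core in 22.8%, TGACCTCA in 1.94% and the Sox core in 16.5%. A match is a description of these letters and not a site in use. TGACCTCA is known from the human TRH promoter as a site for CREB and thyroid hormone receptors. The Calml4 window holds none of the 6 motifs, of which TGACGTCA occurs in 1.55%, the octamer in 2.86% and the Nanog core in 6.57% of promoters. G and C made up 68.8% of the Trh window and 57.6% of the Calml4 window.

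**Figure D1:**
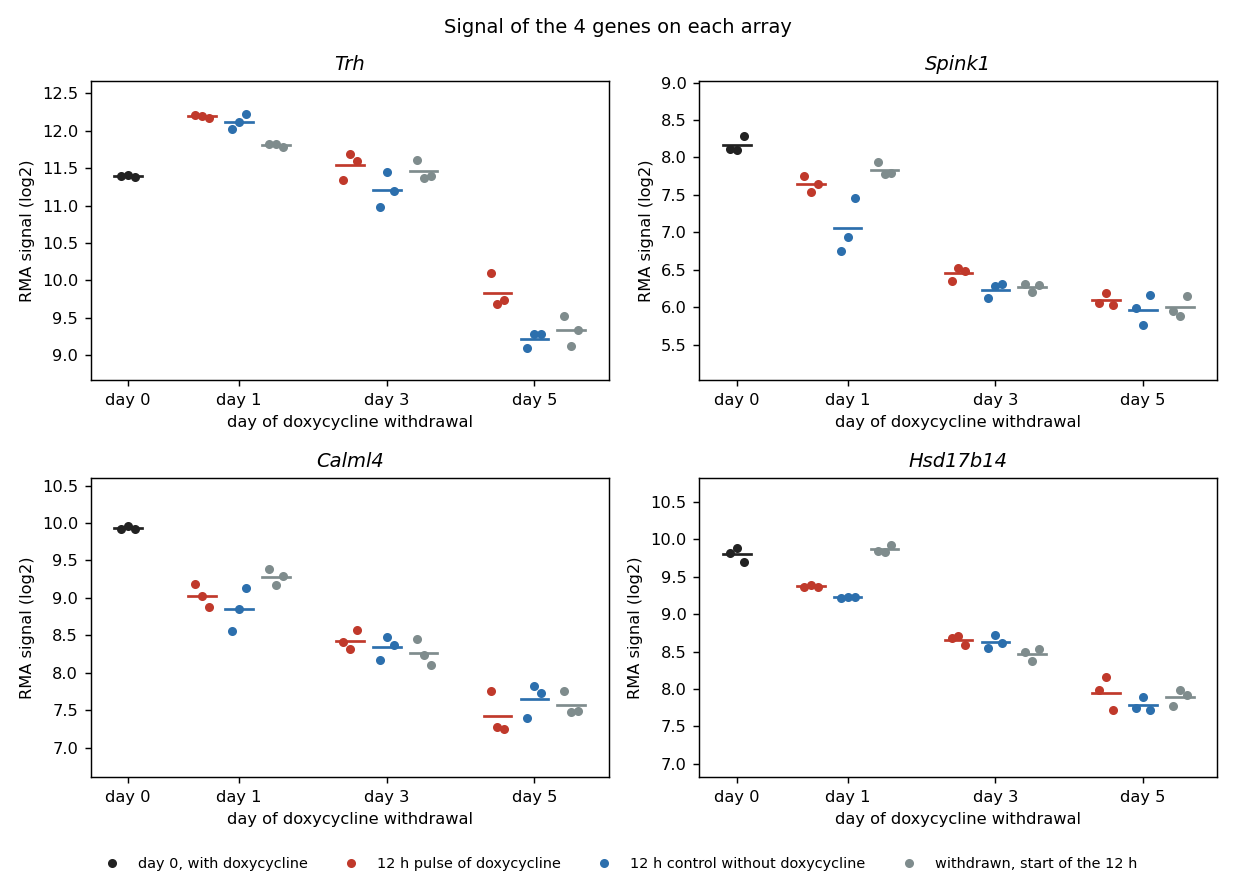
RMA signal (log2) of each gene on every array, by day of withdrawal. Points are single arrays and bars are means of 3; within a day the pulsed arrays stand left, the 12 h controls in the middle and the withdrawn arrays right. Trh was highest in the day 1 groups and dropped mainly between day 3 and day 5, whereas the day 3 arrays of the other 3 genes already lay well below day 0.

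Trh did not begin as a loss. Its signal was 11.40, 11.41 and 11.38 at day 0, 11.83, 11.82 and 11.78 at day 1, 11.61, 11.37 and 11.39 at day 3 and 9.53, 9.13 and 9.34 at day 5 of withdrawal. Every day 1 array lay above every day 0 array, and the day 3 and day 0 arrays overlapped. The 3 day 5 arrays lay below all others of these groups. How many of all clusters separated in this way was not counted, so the day 1 rise is a description only. The mean stood 0.41 above day 0 at day 1 and 2.07 below it at day 5, a 4.19-fold loss, all of it after day 3.

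Spink1 was lost earlier. It stood at 8.11, 8.10 and 8.29 at day 0, 7.94, 7.78 and 7.79 at day 1, 6.31, 6.21 and 6.30 at day 3 and 5.95, 5.89 and 6.16 at day 5. None of these groups overlapped, which was in part set by the choice of the gene. The mean was 0.33 below day 0 at day 1, 1.90 below it at day 3 and 2.17 below it at day 5, a 4.50-fold loss, and the day 3 level held 87.4% of the total difference. The Spink1 cluster was among the 40 percent with the lowest mean signal. The part of this low level in the small difference from day 3 to day 5 was not tested.

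Calml4 was, like Spink1, already lower at day 1. Its signal was 9.91, 9.95 and 9.92 at day 0, 9.38, 9.17 and 9.29 at day 1, 8.44, 8.24 and 8.11 at day 3 and 7.75, 7.47 and 7.49 at day 5. The 4 groups did not overlap, again in part set by the choice, and the steps were more even than those of the other genes. The day 1 mean held 27.5% and the day 3 mean 70.7% of the difference of 2.36, a 5.12-fold loss.

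Hsd17b14 had not moved at day 1. Its signal was 9.82, 9.89 and 9.70 at day 0, 9.85, 9.83 and 9.92 at day 1, 8.49, 8.37 and 8.54 at day 3 and 7.77, 7.98 and 7.93 at day 5. The day 0 and day 1 arrays overlapped, and the day 3 and day 5 arrays each formed a separate lower group. The day 3 mean held 70.0% of the difference of 1.91, which was a 3.76-fold loss. Over all tested clusters, withdrawal gave 3.02% called lower at day 1, 14.3% at day 3 and 18.8% at day 5. These contrasts chose the 4 genes, and nothing is read from them here. The share of all clusters whose arrays did not overlap was not counted for the withdrawn groups and day 0, so nothing is read from those separations either.

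The day 1 state was not stable over the next 12 h without doxycycline. Spink1 stood at 6.75, 6.94 and 7.46 in the day 1 controls, against 7.94, 7.78 and 7.79 in the day 1 withdrawn arrays, a mean difference of -0.78. Hsd17b14 stood at 9.22, 9.24 and 9.23, against 9.85, 9.83 and 9.92, a difference of -0.64. Calml4 stood at 8.56, 8.85 and 9.13, against 9.38, 9.17 and 9.29, a difference of -0.43. These 3 genes were thus lower after the 12 h with no overlap between arrays, as were 6.67% of all clusters. Hsd17b14, level through day 1, had taken 30.1% of its full difference by the end of the 12 h. Trh went the other way, at 12.02, 12.12 and 12.23 in the controls against 11.83, 11.82 and 11.78 in the withdrawn arrays, a difference of 0.31, and 15.2% of clusters were higher without overlap.

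On days 3 and 5 the same 12 h left smaller differences, from -0.25 for Trh on day 3 to 0.16 for Hsd17b14 on day 3. The Hsd17b14 controls of day 3, at 8.55, 8.72 and 8.62, lay just above the withdrawn arrays, where 12.2% of clusters were higher and 6.05% lower without overlap, and the other 7 comparisons of days 3 and 5 had overlapping arrays. The withdrawn arrays of these comparisons are those that chose the genes, so they carry no test.

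The courses were then followed in the 12 h control and pulsed arrays, which are not those of the withdrawal comparisons. They follow the same withdrawal, 12 h later, so a fall between days was in part set by the choice of genes. Among the 12 h controls, all 4 genes fell between day 1 and day 3, and Trh, Calml4 and Hsd17b14 fell again between day 3 and day 5. The background was 4.42% of clusters called lower in the first step and 7.42% in the second. Called means an adjusted p under 0.05 in limma over all 23385 clusters. The medians of all clusters were -0.01 and -0.03 in these steps. Of the 11 trophectoderm markers 7 rose in the first step and 8 in the second, where 5.6% and 8.98% of all clusters were called higher, and 4 and 7 of the 10 stem cell markers fell; their part in the losses was not tested.

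Trh averaged 9.22 ± 0.11 in the day 5 controls, against 11.21 ± 0.24 in the day 3 controls (SD, n = 3 each), where the arrays read 10.98, 11.45 and 11.19. The day 5 arrays, at 9.10, 9.28 and 9.29, lay far below, a change of -1.99 ± 0.11 (SE, adjusted p = 3.34e-12) or 3.96-fold. The step of day 3 against day 1 was -0.92 ± 0.11 (adjusted p = 5.12e-06). In this arm as well the larger step was the later one.

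Spink1 had the opposite order of steps. Its day 3 controls, at 6.12, 6.28 and 6.31, lay below the day 1 controls by 0.82 in the mean (-0.82 ± 0.12, adjusted p = 5.22e-05), whereas its day 5 controls, at 5.99, 5.76 and 6.16, overlapped those of day 3 and the step of -0.27 ± 0.12 was not called (adjusted p = 0.142, 95% interval -0.52 to -0.02). The Spink1 means of 6.24 in the day 3 controls and 5.97 in the day 5 controls were low signals. RMA compresses differences near background, and the part of this in the smaller second step was not tested. Calml4 stood at 7.39, 7.82 and 7.73 in the day 5 controls, against 8.17, 8.48 and 8.38 in the day 3 controls. Its steps were -0.50 ± 0.14 for day 3 against day 1 (adjusted p = 0.0184) and -0.69 ± 0.14 for day 5 against day 3 (adjusted p = 0.000812). The first of these was not called without replicate 2 or 3 of the day 1 control or replicate 1 of the day 3 control, with values of -0.50, -0.36 and -0.42. Hsd17b14 read 7.75, 7.90 and 7.73 in the day 5 controls, and its steps of -0.60 ± 0.084 and -0.84 ± 0.084 were both called (adjusted p = 2.33e-05 and 6.96e-08).

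**Figure D2:**
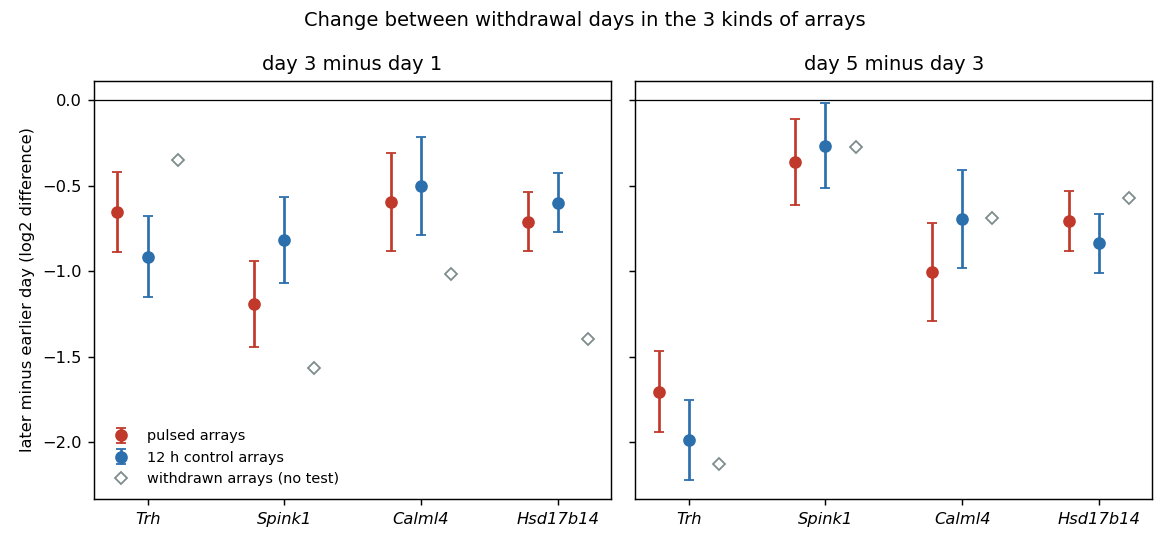
Difference (log2) of the later from the earlier withdrawal day in pulsed, 12 h control and withdrawn arrays, with day 3 minus day 1 in the left panel and day 5 minus day 3 in the right. Bars on the pulsed and control points are 95% intervals from limma, and open diamonds are withdrawn means with no test. Trh had its largest differences from day 3 to day 5, -1.70 and -1.99, and Spink1 from day 1 to day 3, -1.19 and -0.82.

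The pulsed arrays also showed losses between days, with all 4 genes called lower in both steps. Of all clusters, 5.43% were called lower in the first step and 8.53% in the second. The values were -0.66 ± 0.11 and -1.70 ± 0.11 for Trh, -1.19 ± 0.12 and -0.36 ± 0.12 for Spink1, -0.60 ± 0.14 and -1.0 ± 0.14 for Calml4, and -0.71 ± 0.084 for both steps of Hsd17b14. Adjusted p-values lay between 2.87e-11 and 0.0388. The second Spink1 step was the weakest, and it was not called (adjusted p = 0.0501 to 0.136) without replicate 2 or 3 of the day 3 pulsed arrays, or without any 1 of the day 5 pulsed arrays, with values between -0.41 and -0.33. The pulsed arrays serve in the pulse comparison as well, and the pulse returned doxycycline for the last 12 h only.

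The pulse comparison asked whether 12 h of doxycycline changed the genes against time-matched controls. The compared arrays are not those of the withdrawal comparisons, but the estimate of spread came from all 30 arrays. Of the 12 comparisons, 2 passed the test, Spink1 on day 1 and Trh on day 5, and both were higher in pulsed cells. The background of clusters called higher by the pulse was 0.547% on day 1, 0.00428% on day 3 and 5.13% on day 5, and of those called lower 3.2%, 0.0342% and 7.1%.

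Spink1 stood at 7.75, 7.54 and 7.65 in the day 1 pulsed arrays, against 6.75, 6.94 and 7.46 in their controls. All pulsed arrays lay above all controls, as in 6.91% of clusters, and the difference was 0.59 ± 0.12 (adjusted p = 0.00591), or 1.51-fold. Of the marker lists, only the trophectoderm one separated on this day. The 11 trophectoderm markers averaged 7.94 to 8.05 in the pulsed arrays, against 8.08 to 8.11 in the controls. Only Krt7 of them was called, and it was lower (-0.55, adjusted p = 1.68e-05). Pulsed and control arrays overlapped in the means of the stem cell, feeder and endoderm lists. Of the 10 stem cell markers only Klf4 was called, higher (0.39, adjusted p = 0.0150). Of the 15 feeder markers only Mmp2 was called, lower (-0.32, adjusted p = 0.0448), and no endoderm marker was called. The part of these markers in the Spink1 difference was not tested. The pulsed arrays still lay just below the withdrawn arrays that began the 12 h, by 0.19 in the mean (7.65 in pulsed and 7.84 in withdrawn cells), so the pulsed level stayed closer to that start than the control level did. The call was lost in a fit of these 2 groups alone (adjusted p = 0.134). On the next days the gap was smaller: 6.35, 6.52 and 6.49 in pulsed cells against 6.12, 6.28 and 6.31 in controls on day 3, a difference of 0.22 ± 0.12 (adjusted p = 0.417). On day 5 it was 6.05, 6.19 and 6.04 against 5.99, 5.76 and 6.16, a difference of 0.12 ± 0.12 (adjusted p = 0.484). The day 3 groups did not overlap, as was the case, in the same direction, for 8.12% of all clusters. Spink1 signals were low on days 3 and 5, and the part of this in the smaller gaps was not tested.

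Trh showed a pulse difference on the last day. It stood at 10.09, 9.68 and 9.73 in the day 5 pulsed arrays, against 9.10, 9.28 and 9.29 in the controls, with no overlap, as in 9.13% of clusters. The difference was 0.61 ± 0.11 (adjusted p = 0.00187), or 1.53-fold. Even so, the pulsed mean was 9.83, against 11.40 at day 0, a difference of -1.56. Of the marker lists, the 11 trophectoderm markers averaged 9.61 to 9.68 in the pulsed arrays, against 9.49 to 9.65 in the controls, and the 10 stem cell markers 10.20 to 10.39, against 10.28 to 10.48. Called were 1 trophectoderm marker higher and 1 lower, 2 stem cell markers lower, 2 feeder markers higher and 1 lower, and no endoderm marker; their part was not tested. Of the controls here, 2 were among the widest arrays; without the 4 widest arrays, which leaves 1 control array whose spread is taken from the other groups, the difference was 0.73 ± 0.15 (adjusted p = 0.0408). In a fit of these 2 groups alone it was not called (adjusted p = 0.168).

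On day 3 Trh read 11.34, 11.68 and 11.59 in pulsed cells, against 10.98, 11.45 and 11.19 in controls. The arrays overlapped, and the difference of 0.33 ± 0.11 was not called (adjusted p = 0.208, 95% interval 0.10 to 0.57 before adjustment for the number of clusters), whereas with array weights it was 0.48 and called (adjusted p = 0.00335). On day 1 it read 12.21, 12.20 and 12.18, against 12.02, 12.12 and 12.23, a difference of 0.07 ± 0.11 (adjusted p = 0.812). Both groups were above every day 0 array, a separation that was not counted over all clusters. Trh thus stood high on day 1 with doxycycline and without it.

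**Figure D3:**
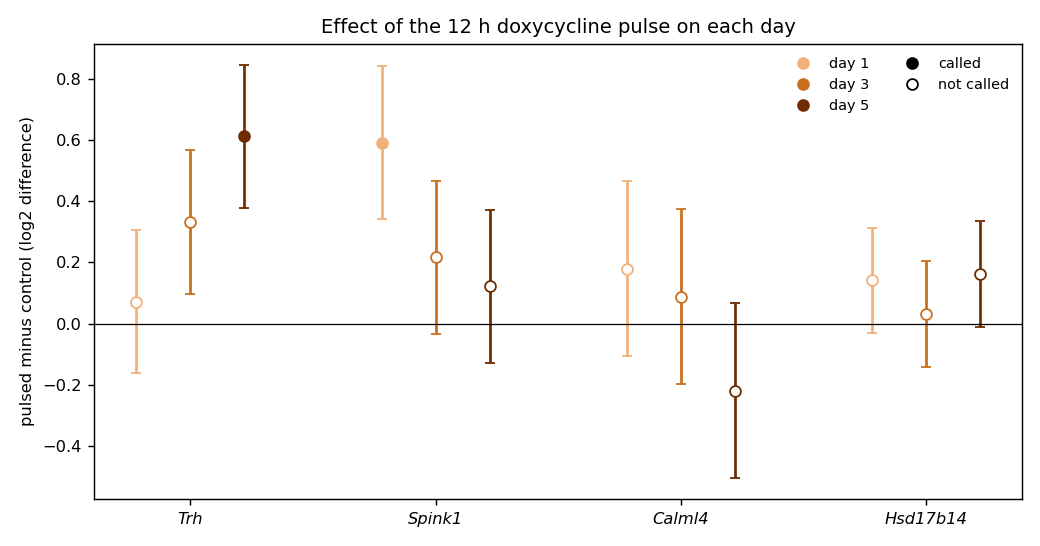
Pulsed minus time-matched control (log2 difference) for each gene on days 1, 3 and 5. Points are differences of 3 against 3 arrays with 95% intervals from limma, filled where called; the filled points are Spink1 on day 1 at 0.59 and Trh on day 5 at 0.61.

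Calml4 had no called pulse difference. It stood at 9.18, 9.03 and 8.87 in pulsed cells against 8.56, 8.85 and 9.13 in controls on day 1, at 8.41, 8.31 and 8.57 against 8.17, 8.48 and 8.38 on day 3, and at 7.76, 7.28 and 7.25 against 7.39, 7.82 and 7.73 on day 5. Pulsed and control arrays overlapped on each day. The differences were 0.18 ± 0.14, 0.09 ± 0.14 and -0.22 ± 0.14 (adjusted p = 0.571, 0.807 and 0.263), with 95% intervals of -0.11 to 0.47, -0.20 to 0.37 and -0.51 to 0.07. Without replicate 1 of the day 5 pulsed arrays the day 5 difference was -0.39 and called (adjusted p = 0.0490), while with array spread as a covariate it was 0.07 and without the 4 widest arrays, which leaves 1 control array, 0.04, neither of them called.

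Hsd17b14 read 9.36, 9.39 and 9.36 in pulsed cells, against 9.22, 9.24 and 9.23 in controls, on day 1. These arrays did not overlap, as in 6.91% of all clusters in this direction, and the difference of 0.14 ± 0.084 was not called (adjusted p = 0.428, 95% interval -0.03 to 0.31). It was 0.03 ± 0.084 on day 3, with 8.68, 8.71 and 8.59 against 8.55, 8.72 and 8.62, and 0.16 ± 0.084 on day 5, with 7.99, 8.16 and 7.71 against 7.75, 7.90 and 7.73 (adjusted p = 0.892 and 0.178). The intervals reached up to 0.20 and 0.33, so a rise of the size seen for Spink1 on day 1 or Trh on day 5 lay outside the interval on each day.

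Whether the pulse acted differently from day to day was tested as a difference of pulse effects, and none of the 12 such comparisons was called. For Spink1 the day 5 effect was 0.47 ± 0.17 smaller than that of day 1 (-0.47, adjusted p = 0.257, 95% interval -0.82 to -0.12). For Trh the day 5 effect was larger than that of day 1 by 0.54 ± 0.16 (adjusted p = 0.173, 95% interval 0.21 to 0.87). Over all clusters 0.0513% were called lower and 0.0599% higher in this comparison, 0.582% and 0.355% for day 5 minus day 3, and 0.00855% and 0% for day 3 minus day 1. The Spink1 difference was called without replicate 3 of the day 1 control (-0.68, adjusted p = 0.0203), and the Trh difference with array spread as a covariate (0.64, adjusted p = 0.00889).

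Across the 10 group means, Calml4 and Hsd17b14 followed each other most closely (Pearson r = 0.969), and Spink1 followed them at 0.947 and 0.957. Trh stood apart from the others, at 0.685 with Spink1, 0.779 with Calml4 and 0.828 with Hsd17b14. All 4 genes were chosen for a loss over the same arrays, so a positive r is in part set by the choice. With Nanog, r was 0.398 to 0.470. These are descriptions over 10 points that share the arrays.

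The 3 most similar genes to each were sought among the other 1152 genes whose group means spanned at least 1 log2 unit, by Pearson r over the 10 means. For Trh they were Slc7a7 (0.978), a light chain of amino acid exchangers, Fut9 (0.970), a fucosyltransferase that makes the stage-specific antigen SSEA-1 in mouse, and the cationic amino acid transporter Slc7a3 (0.962). For Spink1 they were Oxnad1 (0.991), the homeobox gene Gbx2 (0.989) and H2-M5 (0.987), a non-classical histocompatibility gene. For Calml4 they were Ccnb1ip1 (0.993), needed for meiotic crossing over, Zcchc10 (0.988) and 2410137M14Rik (0.986). For Hsd17b14 they were the nicotinic receptor subunit Chrna9 (0.990), 2410137M14Rik (0.988) and Ecsit (0.988).

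Genes that work with or resemble the 4 were counted at day 5 of withdrawal against day 0. Over all clusters, 23.8% were called higher and 18.8% lower there. Of 10 measured genes of TRH processing, receptors and breakdown, 2 rose and 1 fell, with a median difference of 0.01, against -0.01 over all clusters. The convertase Furin rose by 0.94 ± 0.083 (adjusted p = 5.05e-10) and the amidating enzyme Pam by 0.55 ± 0.086 (adjusted p = 5.95e-06), while carboxypeptidase E, Cpe, stood at -0.87 ± 0.087 (adjusted p = 4.83e-09). The receptors Trhr and Trhr2 were at -0.08 and -0.25 and were not called (adjusted p = 0.647 and 0.0837).

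Of 17 measured SPINK family and digestive protease genes, 2 fell and none rose (median -0.04). They were the chymotrypsin-like protease Ctrl at -0.40 ± 0.080 (adjusted p = 0.000195) and Tmprss15, the enteropeptidase that activates trypsinogen, at -0.30 ± 0.084 (adjusted p = 0.00479). Trypsins Prss2 and Prss3, at -0.09 and -0.31, were not called (adjusted p = 0.669 and 0.132), and none of the 9 other Spink genes was. The 17 genes averaged 6.06 at day 0 and 5.98 on the day 5 withdrawn arrays. These are low signals, so the falls are not read as a loss of expressed proteases.

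Of 14 measured calmodulins and brush border genes, 2 rose (median 0.04), the actin bundlers Espn by 0.29 ± 0.070 (adjusted p = 0.00112) and Vil1 by 0.26 ± 0.077 (adjusted p = 0.00859). Myo7b stood at -0.01 (adjusted p = 0.952), and Calm2 and Calm3, which encode calmodulin itself, at 0.04 and -0.02 (adjusted p = 0.562 and 0.812).

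Of 10 other 17-beta-hydroxysteroid dehydrogenases, 2 rose and 1 fell (median -0.01). Hsd17b11, a lipid droplet enzyme, fell by 1.45 ± 0.10, with means of 7.89 at day 5 and 9.34 at day 0 (adjusted p = 1.07e-11). The peroxisomal Hsd17b4 rose by 0.39 ± 0.074 (adjusted p = 8.68e-05) and Hsd17b7, of cholesterol synthesis, by 0.32 ± 0.097 (adjusted p = 0.00784).

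In these 4 lists no gene was called in the pulse of day 1 or day 3, and 1 gene of each was called on day 5. They were Spink10 at 0.37 ± 0.10 (adjusted p = 0.0223), Hsd17b7 at 0.31 ± 0.097 (adjusted p = 0.0352), the glutaminyl cyclase Qpct at -0.36 ± 0.091 (adjusted p = 0.0142) and the actin bundler Pls1 at -0.27 ± 0.085 (adjusted p = 0.0405). The background of that pulse was 5.13% called higher and 7.1% called lower.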

How the data were processed

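Total RNA was measured on 30 arrays of the Mouse Gene 1.0 ST type. The deposited table holds log2 signals per transcript cluster; the authors used RMA and Affymetrix's Expression Console software, as the submitters' processing notes list. Versions and genome build are not given in the sources used here, so no coordinates are given for the clusters; promoter coordinates are those of the RefSeq table. RMA corrects background, equalizes the arrays and summarizes probes, and it compresses differences near background. Of 28815 clusters, 21780 had 1 symbol and 1605 several.

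All arrays were fitted in limma 3.58.1 (R 4.3.3) with 1 mean per group, 20 residual degrees of freedom and no covariate, with Benjamini-Hochberg adjustment within each contrast across the 23385 clusters that carry a symbol. The code of the fit was checked on simulated data with independent normal noise for each cluster. These data held no array-wide differences in spread, so the check does not cover those. Descriptions, correlations and motif counts used Python 3.11.15. Separate cultures are not stated for the replicates, so p-values measure the spread between these arrays, and 3 arrays per group limit the precision. None of the 30 replicate pairs was identical.

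The members, lists and tests were chosen with earlier results of these data known. Named genes are the 4 members, Nanog, the 3 genes most like each member, up to 4 called genes per list at day 5 and up to 3 in a pulse, and list members given as not called. Listed genes without a single-symbol cluster were not analysed here. Alternatives were robust and trended variances, array weights, the compared groups alone, median centring, quantile normalization, a filter on low signal, clusters without a symbol, array spread as a covariate, the replicate block, each array left out and, chosen after seeing the data, the 4 widest arrays left out.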

Additional observations from a re-analysis of the deposited data

How the results depend on the processing

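Neither direction nor call changed in any alternative for the control and pulsed steps of Trh and Hsd17b14, the second control step and both pulsed steps of Calml4, and the first control and pulsed steps of Spink1. With only the compared groups fitted, Spink1 on day 1 (0.59), Trh on day 5 (0.61) and the first control step of Calml4 (-0.50) were not called, and without the 4 widest arrays that Calml4 step was -0.43 and not called. Array weights added calls for Trh on day 3 (0.48), Calml4 on day 5 (-0.41), and the pulse differences of Calml4 (-0.69 for day 5 minus day 1 and -0.50 for day 5 minus day 3) and Spink1 (-0.64 for day 5 minus day 1 and -0.47 for day 3 minus day 1). The array spread as covariate added Trh on day 3 (0.43) and its pulse difference of day 5 minus day 1 (0.64), which quantile normalization also added (0.72), and leaving out the widest arrays added that of Spink1 (-0.70). Without the widest arrays the day 5 control holds 1 array, which is assumed to vary like the other groups. The cause was not tested. With 1 array left out, values ran from -0.65 to -0.36 for the first control step of Calml4, -0.42 to -0.33 for the second pulsed step of Spink1, -0.39 to -0.13 for Calml4 on day 5 (called without replicate 1 of the pulse, adjusted p = 0.0490) and -0.68 to -0.32 for the Spink1 difference of day 5 minus day 1 (called without replicate 3 of the day 1 control, adjusted p = 0.0203). The uncalled Calml4 difference on day 5 turned to 0.07 with array spread as covariate and to 0.04 without the widest arrays. Same-numbered arrays had a median residual correlation of -0.006, against 0.004 for differently numbered ones, and 7 of 30 arrays correlated best with their own number. No pairing by number was seen, but single correlations ran from -0.716 to 0.574, so this check cannot exclude it. The replicate block changed no call, with Spink1 on day 1 at 0.59 (adjusted p = 0.00399). Spink1 was removed by the filter on low signal, and no member has another cluster to try. Counts of called clusters moved widely. Higher and lower, they ran from 11 to 1669 (128 in the fit reported) and 63 to 2904 (749) for the pulse on day 1, 1 to 710 (1) and 0 to 1155 (8) on day 3, and 0 to 5955 (1200) and 0 to 5199 (1660) on day 5. They ran from 503 to 2413 (1309) and 288 to 2465 (1034) for the first control step, 576 to 4018 (2100) and 354 to 4413 (1735) for the second, 1017 to 3286 (1523) and 768 to 3398 (1270) for the first pulsed step and 1621 to 4031 (2102) and 1206 to 3928 (1994) for the second.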
